A study of Homo sapiens with 24 samples.

Results

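GDF15 and the ligands of the transforming growth factor beta (TGF-beta) superfamily were followed across the lines and treatments of a CRISPR interference (CRISPRi) study in SK-HEP-1, an established human cell line from a liver tumour. The genes were the rows of the gene count table with the symbol GDF15, TGFB1, TGFB2, TGFB3, INHBA, INHBB, INHBE, BMP2, BMP4 or FST, 10 names of 58825 genes. By symbol 9 of the 10 were found. TGFB1 was found by its gene ID, which GENCODE 29 pairs with TGFB1 while the deposited table prints AC011462.1 beside it. TGFB1 is therefore described beside the 9 and enters no count of members called. In CRISPRi a catalytically inactive Cas9 with a repressor is brought to a gene's start by a guide RNA. The PURPL guide lines (sg2, sg4, sg5 and sg6) each carried 1 of 4 guides against PURPL, a p53-induced long noncoding RNA, and the non-targeting lines (NTC1 and NTC2) each carried 1 of 2 control guides, so all 6 lines carry the CRISPRi machinery. Each line received Nutlin-3a at 10 µM, which frees p53 from MDM2, or its vehicle DMSO, for 6 h, and was harvested as 2 biological replicates, numbered 1 and 3. Each line is 1 established culture, so the harvests are repeats of a line and the lines are the replicates of a guide class.

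Ligands of this superfamily are secreted as dimers that bring type I and type II receptor kinases together on the cell surface. The receptors phosphorylate SMAD proteins, SMAD2 and SMAD3 for TGF-beta and activin ligands and SMAD1, SMAD5 and SMAD9 for BMP ligands, and these enter the nucleus with SMAD4. GDF15 is a distant member that acts through GFRAL and RET in the brainstem and is known as a p53 target and as a stress-induced hormone that lowers appetite.

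GDF15 lies on the plus strand of chromosome 19 (hg38, GENCODE 29 gene model, chr19:18374731-18389176). INHBB lies on the plus strand of chromosome 2 (chr2:120346143-120351808). The 250 bases upstream of their RefSeq starts (GRCh38.p14, plus strand, chr19:18385908-18386157 and chr2:120345886-120346135) are shown because GDF15 and INHBB are the members that passed the test in both guide classes, GDF15 higher and INHBB lower after Nutlin-3a. Capitals mark TATAAA.
GDF15: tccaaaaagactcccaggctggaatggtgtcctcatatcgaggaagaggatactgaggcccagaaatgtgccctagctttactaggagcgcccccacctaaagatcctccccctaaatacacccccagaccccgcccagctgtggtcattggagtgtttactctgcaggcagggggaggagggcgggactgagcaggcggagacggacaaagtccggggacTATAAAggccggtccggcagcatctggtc
INHBB: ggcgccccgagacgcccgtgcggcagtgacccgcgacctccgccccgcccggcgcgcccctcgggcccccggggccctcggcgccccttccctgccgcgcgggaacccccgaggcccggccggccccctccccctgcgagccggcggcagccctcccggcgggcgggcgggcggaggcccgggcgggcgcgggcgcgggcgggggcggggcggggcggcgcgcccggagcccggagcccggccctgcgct
The GDF15 window has TATAAA 29 bases before the start, and the INHBB window has no match of any motif searched and a GC content of 89.6%, against a median of 58.0% over the windows of all genes. Promoters were found in RefSeq for 8 of the 10 names, not for INHBE and BMP2. Windows of 250 bases before and 50 after the start were searched on both strands. TATAAA occurred in 12.0% of 27305 such windows and in those of GDF15, TGFB2 and INHBA. The decamer of the p53 response element occurred in 6.54% of windows and in that of TGFB3 alone among the 8, as AGGCAAGCCC from 52 bases before its start. The composite element TGATGNAAT, bound by ATF4 with C/EBP proteins, occurred in 1.02% of windows and the SMAD palindrome GTCTAGAC in 0.201%, and neither in any of the 8. The motifs do not overlap one another in these windows. A missing match says only that these letters are not in the window.

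Libraries held 66.4 M to 92.1 M estimated counts (median 74.2 M). Each level below is in CPM, that is, counts scaled to the TMM-adjusted library total. Harvest 1 of sg2 with Nutlin-3a gave a library that stood apart. Its levels depended on the GC content of the transcript, with a slope of 1.47 on the log2 scale per 10 percentage points relative to the median library, whereas the slopes of the remaining 23 lay between -0.21 and 0.33. It is named the divergent library here, and results on the members that rest on it are given with and without it. Endothelial identity, the cell type in the labels, was not seen in the defining markers. PECAM1 reached at most 0.0277 CPM and CDH5 0.0591 CPM. Of 9 endothelial markers 2 passed the filter and 1 was at 0 in all 24 libraries, and their summed level was 0.236 to 0.663 CPM in PURPL guide lines with Nutlin-3a, 0.176 to 0.372 CPM in PURPL guide lines with DMSO, 0.182 to 0.275 CPM in NTC lines with Nutlin-3a and 0.162 to 0.256 CPM in NTC lines with DMSO. PURPL averaged 0.556 ± 0.204 CPM in PURPL guide lines with DMSO (SD, n = 8 libraries), against 8.35 ± 1.25 CPM in NTC lines with DMSO (SD, n = 4 libraries). CDKN1A, the p53 target p21, rose after Nutlin-3a by 4.07 on the log2 scale in PURPL guide lines (edgeR adjusted p = 2.22e-10) and by 3.59 in NTC lines (edgeR adjusted p = 9.73e-08).

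In vehicle-treated cells TGFB2 had the highest level per length of the 10 genes. Its median over the 12 DMSO libraries was 41.7 CPM per kilobase of exon. FST, at 3.92 CPM per kilobase, TGFB1 at 3.48 and INHBA at 2.91 followed. GDF15 stood at 1.08 CPM per kilobase, INHBB at 0.352 and BMP4 at 0.242. BMP2 at 0.0568 and TGFB3 at 0.0507 CPM per kilobase rested on 4 to 28 and 8 to 31 counts per library. INHBE, a subunit gene known mainly from liver (plus strand, chr12:57452323-57459280), had 0 to 3 counts per library, 25 in all, with 9 libraries at 0, and did not pass the filter for the edgeR tests. A count of 0 here allows up to 3 counts, or 0.0326 to 0.0452 CPM. GFRAL, the receptor of GDF15, had 0 counts in all 24 libraries, and its partner RET reached at most 0.0273 CPM.

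The first question was which of the ligands respond when p53 is stabilised, asked separately in the PURPL guide lines and in the NTC lines. GDF15 was higher with Nutlin-3a than with DMSO in every line. In PURPL guide lines with Nutlin-3a GDF15 stood at 199 and 17.0 CPM in sg2 (harvests 1 and 3), 24.8 and 19.1 in sg4, 23.2 and 30.0 in sg5, and 18.1 and 22.1 in sg6. The same lines with DMSO had 3.01 and 2.05 CPM in sg2, 2.45 and 1.80 in sg4, 1.76 and 2.69 in sg5, and 1.71 and 1.86 in sg6. Every Nutlin-3a library lay above every DMSO library, and the 199 CPM of the divergent library was far above the other 7. In NTC lines GDF15 had 21.6 and 17.4 CPM in NTC1 and 21.1 and 20.6 CPM in NTC2 with Nutlin-3a, against 3.57 and 3.44 CPM in NTC1 and 3.50 and 1.93 CPM in NTC2 with DMSO. Again the treatments did not overlap, and all 12 pairs of the same line and harvest number were higher with Nutlin-3a.

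**Figure D1:**
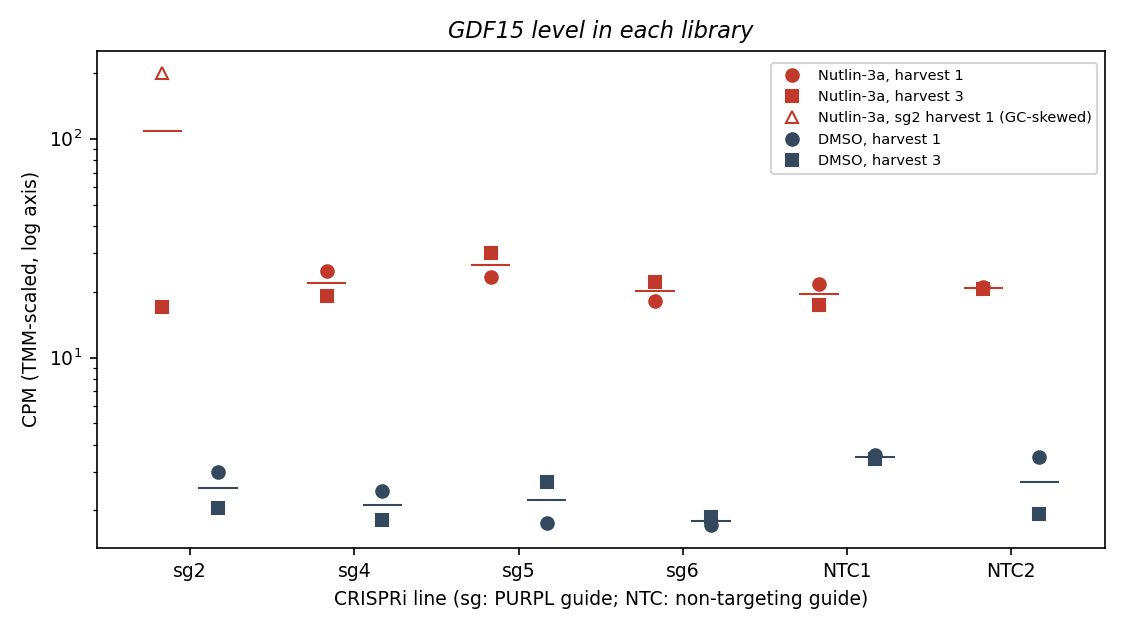
GDF15 level in CPM (log axis) in each of the 24 libraries, by CRISPRi line, with Nutlin-3a points left of DMSO points and a bar at the mean of the 2 harvests. All Nutlin-3a libraries lie at or above 17.0 CPM and all DMSO libraries at or below 3.57 CPM, and the open triangle marks the divergent library at 199 CPM.

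GDF15 rose 15.6-fold in PURPL guide lines (log2 3.96, SE 0.37, edgeR quasi-likelihood test, adjusted p = 1.61e-06), or 9.74-fold without the divergent library (log2 3.28, SE 0.14, edgeR adjusted p = 2.66e-11). In NTC lines it rose 6.54-fold (log2 2.71, SE 0.50, edgeR adjusted p = 0.00246), or 6.38-fold without the divergent library. Such p-values rest on the spread between harvests. Line by line, the response of log2(CPM + 0.1) was 4.50 in sg2 (2.73 without the divergent library), 3.31 in sg4, 3.54 in sg5, 3.42 in sg6, 2.44 in NTC1 and 2.96 in NTC2. With the line as the replicate the mean response was 3.36 ± 0.69 (SD, n = 6 lines), and an exact two-sided sign-flip test gave p = 0.03125, the smallest that 6 lines allow. In the order of the line means with Nutlin-3a (sg2, sg5, sg4, NTC2, sg6, NTC1) and with DMSO (NTC1, NTC2, sg2, sg5, sg4, sg6), the harvests of each neighbouring pair overlapped. Lines further apart did not all overlap. With Nutlin-3a both harvests of sg5 lay above those of sg6, NTC1 and NTC2, and with DMSO no PURPL guide library, the highest at 3.01 CPM, reached the 3.44 CPM of the lower NTC1 harvest. Harvest 3 of sg5 with Nutlin-3a, at 30.0 CPM, had a GC slope of 0.33, the highest outside the divergent library. In bulk RNA fewer cells of a kind and less RNA per cell cannot be told apart.

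TGFB1, a cytokine that restrains epithelial growth and drives matrix production, lies on the minus strand of chromosome 19 (chr19:41301587-41353911) and rose in PURPL guide lines, by less than GDF15. With Nutlin-3a its level in PURPL guide lines had a lowest, median and highest value of 14.0, 17.5 and 121 CPM, the last in the divergent library, and 22.6 CPM was the next highest. The same lines with DMSO had 9.56, 11.3 and 13.5 CPM, and the treatments did not overlap. In NTC lines TGFB1 stood at 17.2 and 15.7 CPM in NTC1 and 15.2 and 15.5 CPM in NTC2 with Nutlin-3a, against 13.2 and 17.1 CPM in NTC1 and 10.6 and 9.51 CPM in NTC2 with DMSO. There the treatments overlapped, and harvest 3 of NTC1 was the 1 pair of 12 that was lower with Nutlin-3a. TGFB1 rose 2.19-fold in PURPL guide lines (log2 1.13, SE 0.27, edgeR adjusted p = 0.00586), or 1.52-fold without the divergent library (edgeR adjusted p = 0.000178). In NTC lines its log2 fold change was 0.37 (SE 0.38, edgeR adjusted p = 0.719). Without the divergent library, which enters the spread shared by all groups, it was 0.33 (SE 0.14, edgeR adjusted p = 0.0938). Removing the trend of each library on GC content gave 0.56 in NTC lines with an edgeR adjusted p of 9.79e-06. In PURPL guide lines the log2 fold change ran from 0.45 to 1.21 over 9 alternative settings of the processing. The transcript GC content of TGFB1 is 63.5%, close to the 62.9% of GDF15. HNRNPUL1, at up to 563 CPM, overlaps TGFB1 on the other strand. The library kit keeps strand, but whether the counting used it is not given in the sources used here, so reads of the pair may be mixed.

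TGFB2, on the plus strand of chromosome 1 (chr1:218346235-218444619), encodes a TGF-beta isoform known from heart and eye development, and was lower after Nutlin-3a in PURPL guide lines. Its lowest, median and highest levels there were 95.3, 178 and 207 CPM with Nutlin-3a, against 202, 219 and 249 CPM with DMSO. The lowest value belongs to the divergent library, and the groups overlapped narrowly. In NTC lines TGFB2 had 148 and 190 CPM in NTC1 and 171 and 168 CPM in NTC2 with Nutlin-3a, against 163 and 151 CPM in NTC1 and 194 and 222 CPM in NTC2 with DMSO. NTC1 and NTC2 thus did not share a direction. TGFB2 fell in PURPL guide lines by 0.40 on the log2 scale (SE 0.13, edgeR adjusted p = 0.0304), and by 0.30 without the divergent library (edgeR adjusted p = 0.00661). All 8 pairs of these lines were lower with Nutlin-3a. Leaving out any 1 of 4 libraries ended the call, with edgeR adjusted p of 0.0585 without sg6 DMSO harvest 1, 0.0656 without sg4 Nutlin-3a harvest 1, 0.0534 without sg5 Nutlin-3a harvest 3 and 0.0501 without sg6 Nutlin-3a harvest 3. In NTC lines the log2 fold change was -0.09 (SE 0.18, edgeR adjusted p = 0.89). TGFB2-OT1, which overlaps TGFB2 on the same strand and had up to 35.2 CPM, may share reads with it. Adding its counts to TGFB2 left the log2 fold change in PURPL guide lines at -0.40 (edgeR adjusted p = 0.043).

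TGFB3, the third TGF-beta isoform, lies on the minus strand of chromosome 14 (chr14:75958099-75982991) and stayed at 0.121 to 0.335 CPM. Its log2 fold change was 0.10 in PURPL guide lines (SE 0.16, edgeR adjusted p = 0.64) and in NTC lines -0.52 (SE 0.23, edgeR adjusted p = 0.208), with 6 of 12 pairs higher with Nutlin-3a. IFT43, at up to 9.67 CPM, overlaps TGFB3 on the other strand, so such a low value may hold its reads.

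The activin subunits parted. INHBA, on the minus strand of chromosome 7 (chr7:41667168-41705834), encodes the subunit of activin A, and INHBB that of activin B. INHBA had a lowest, median and highest level of 12.9, 29.2 and 32.7 CPM in PURPL guide lines with Nutlin-3a, against 21.0, 24.2 and 29.5 CPM with DMSO. The lowest Nutlin-3a value was again the divergent library; the next was 24.5 CPM, and the treatments overlapped. In NTC lines INHBA stood at 29.9 and 37.2 CPM in NTC1 and 31.8 and 29.7 CPM in NTC2 with Nutlin-3a, against 20.9 and 17.8 CPM in NTC1 and 25.2 and 26.9 CPM in NTC2 with DMSO. These did not overlap, and over all lines 11 of 12 pairs were higher with Nutlin-3a, the exception being the pair of the divergent library. Over all 24 libraries INHBA did not pass the test, with a log2 fold change of 0.17 in PURPL guide lines (SE 0.13, edgeR adjusted p = 0.298) and 0.51 in NTC lines (SE 0.18, edgeR adjusted p = 0.106). In NTC lines 2 alternatives with all libraries called it, DESeq2 at 0.54 (adjusted p = 0.045) and edgeR with a filter at 1 CPM at 0.56 (adjusted p = 0.0493). Without the divergent library it rose by 0.27 in PURPL guide lines (SE 0.07, edgeR adjusted p = 0.00671) and by 0.48 in NTC lines (SE 0.10, edgeR adjusted p = 0.00144). With GC trends removed and all 24 libraries kept, INHBA rose by 0.36 in PURPL guide lines (edgeR adjusted p = 1.09e-05) and by 0.51 in NTC lines (edgeR adjusted p = 2.65e-05). Its transcript GC content is 39.1%, and that of TGFB2 38.9%.

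INHBB fell in both classes. Its values in PURPL guide lines with Nutlin-3a were 0.788 and 0.382 CPM in sg2, 0.470 and 0.485 in sg4, 0.510 and 0.946 in sg5, and 0.695 and 0.631 in sg6. With DMSO the same lines had 0.683 and 0.782 CPM in sg2, 0.892 and 0.929 in sg4, 1.37 and 1.39 in sg5, and 1.79 and 1.31 in sg6. The groups overlapped, since sg2 and sg4 were low with DMSO. Within a line the sole pair that was higher with Nutlin-3a held the divergent library. In NTC lines INHBB had 0.886 and 0.664 CPM in NTC1 and 0.697 and 0.475 CPM in NTC2 with Nutlin-3a, against 1.68 and 1.13 CPM in NTC1 and 1.12 and 0.992 CPM in NTC2 with DMSO, without overlap. INHBB fell to 0.556-fold in PURPL guide lines (log2 -0.85, SE 0.17, edgeR adjusted p = 0.0019) and to 0.553-fold in NTC lines (log2 -0.86, SE 0.24, edgeR adjusted p = 0.0419). Without the divergent library the log2 changes were -1.02 (edgeR adjusted p = 6.48e-05) and -0.89 (edgeR adjusted p = 0.00315). The level rests on 28 to 127 counts per library. In NTC lines the call was lost when any of 7 of the 8 libraries was left out, all but NTC1 DMSO harvest 3, with log2 changes of -1.03 to -0.77 and edgeR adjusted p of up to 0.157, and under no filter (adjusted p = 0.074) or a filter at 1 CPM (adjusted p = 0.0509).

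**Figure D2:**
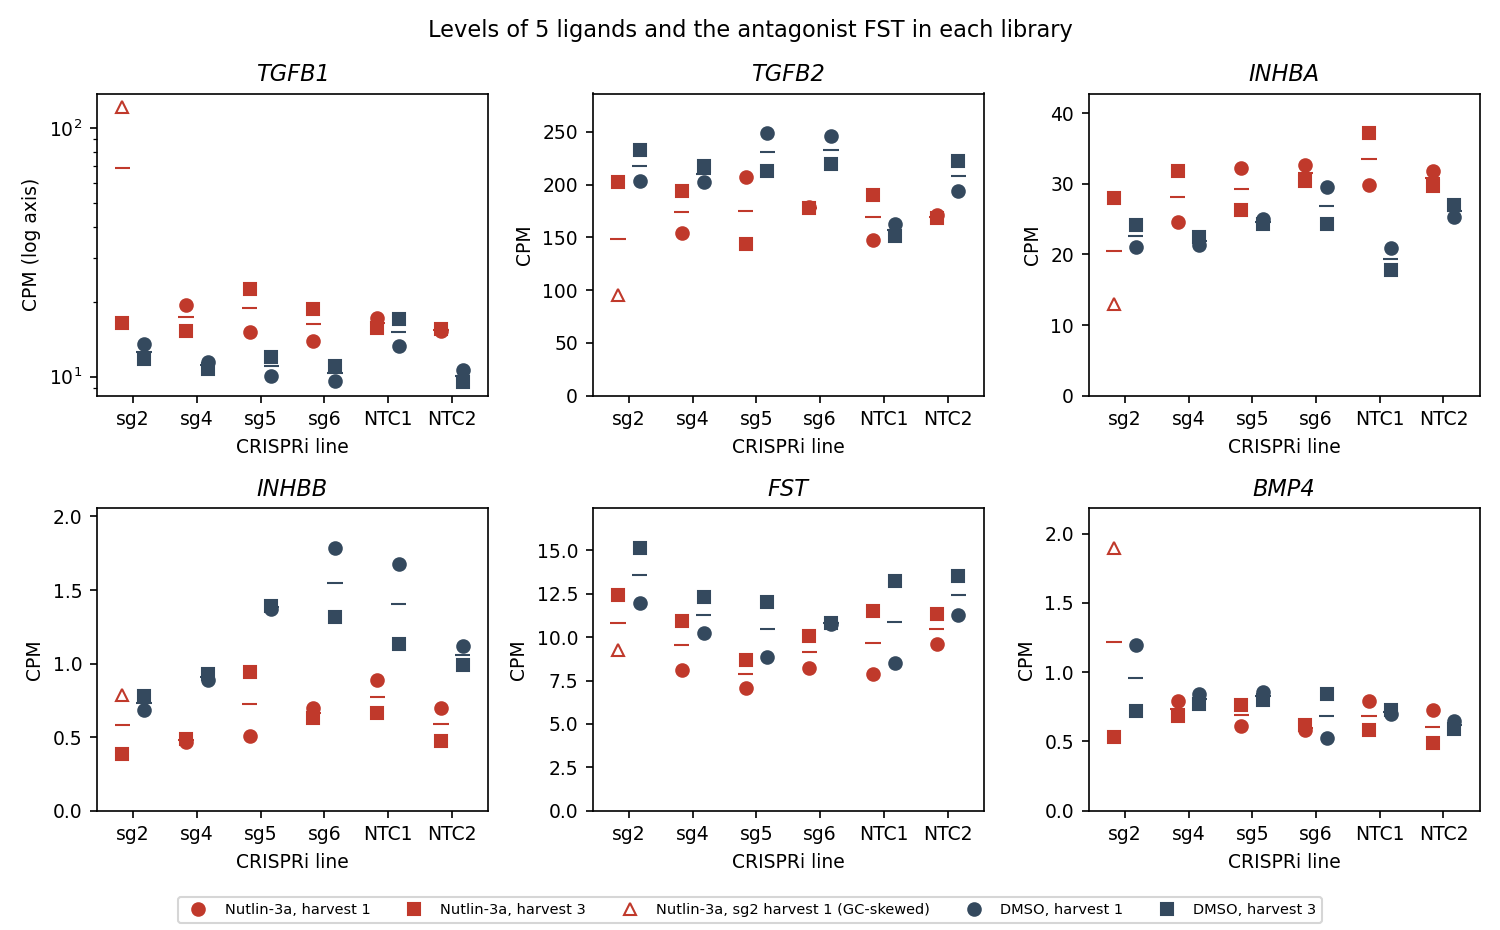
Levels in CPM of TGFB1 (log axis), TGFB2, INHBA, INHBB, FST and BMP4 in each library, by CRISPRi line, with Nutlin-3a points left of DMSO points and bars at the mean of the 2 harvests. INHBB is lower with Nutlin-3a in 11 of 12 pairs and FST in 12 of 12, and the open triangles mark the divergent library, at 121 CPM for TGFB1 and 12.9 CPM for INHBA.

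FST, on the plus strand of chromosome 5 (chr5:53480409-53487134), encodes follistatin, a secreted protein that binds and neutralises activins. It was lower with Nutlin-3a in 12 of 12 pairs, yet the difference was small. It had a lowest, median and highest level of 7.10, 8.97 and 12.4 CPM in PURPL guide lines with Nutlin-3a, against 8.86, 11.4 and 15.1 CPM with DMSO. In NTC lines it had 7.86 and 11.5 CPM in NTC1 and 9.63 and 11.3 CPM in NTC2 with Nutlin-3a, against 8.53 and 13.2 CPM in NTC1 and 11.3 and 13.5 CPM in NTC2 with DMSO. The treatments overlapped in both classes. Harvest 3 was above harvest 1 in all 12 groups of line and treatment. The log2 fold change was -0.30 in PURPL guide lines (SE 0.13, edgeR adjusted p = 0.0833) and -0.20 in NTC lines (SE 0.18, edgeR adjusted p = 0.657). With a block for the harvest number FST was called in PURPL guide lines, at -0.31 (edgeR adjusted p = 0.00537). The counts of members called below come from the fit without that block. Over the lines the mean was -0.27 ± 0.08 (SD, n = 6 lines), with an exact two-sided sign-flip p of 0.03125. Leaving out sg2 Nutlin-3a harvest 3 gave -0.38 in PURPL guide lines. In that fit the divergent library alone stands for sg2 with Nutlin-3a, so its skew no longer enters the spread between harvests.

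The BMP ligands, known for bone and embryonic patterning, were scarce. BMP4, on the minus strand of chromosome 14 (chr14:53949736-53958761), lay between 0.487 and 1.19 CPM in 23 libraries and at 1.90 CPM in the divergent library. Its log2 fold change was -0.06 in PURPL guide lines (SE 0.22, edgeR adjusted p = 0.852; -0.37 and 0.0666 without the divergent library) and -0.04 in NTC lines (SE 0.31, edgeR adjusted p = 0.976). BMP2, on the plus strand of chromosome 20 (chr20:6767664-6780280), lay between 0.0542 and 0.323 CPM, with a log2 fold change of -0.37 in PURPL guide lines (SE 0.26, edgeR adjusted p = 0.27) and -0.65 in NTC lines (SE 0.35, edgeR adjusted p = 0.354). These levels rest on 35 to 166 counts per library for BMP4 and 4 to 28 for BMP2.

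Of the 8 members tested 1 was higher and 2 were lower in PURPL guide lines, against 34.2% of all 16371 genes called (17.7% higher, 16.5% lower). In NTC lines 1 was higher and 1 lower, against 8.21% called (4.18% higher, 4.03% lower). The members called without the divergent library were 2 higher and 2 lower in PURPL guide lines, against 38.5% of 16697 genes (15.9% higher, 22.7% lower), and 2 higher and 1 lower in NTC lines, against 24.8% (8.88% higher, 15.9% lower). The members' median log2 fold change was -0.18 in PURPL guide lines and -0.15 in NTC lines, beside 0.05 and -0.02 over all genes tested. Without the divergent library it was -0.285 in PURPL guide lines and -0.185 in NTC lines, beside -0.00146 and -0.0574 over all genes. The count in PURPL guide lines is near the background, and that in NTC lines rests on 2 genes. Of the 10 genes tested over the 6 lines by the exact sign-flip test, GDF15, TGFB1, INHBB and FST reached its smallest p, 0.03125, and without the divergent library INHBA and BMP4 did too. The p was 0.0625 for TGFB2 and BMP2, and with all libraries 0.1562 for INHBA, 0.1875 for BMP4, 0.5625 for TGFB3 and 0.6875 for INHBE, whose levels lie below the pseudocount of 0.1 CPM, raw values over 10 tests.

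**Figure D3:**
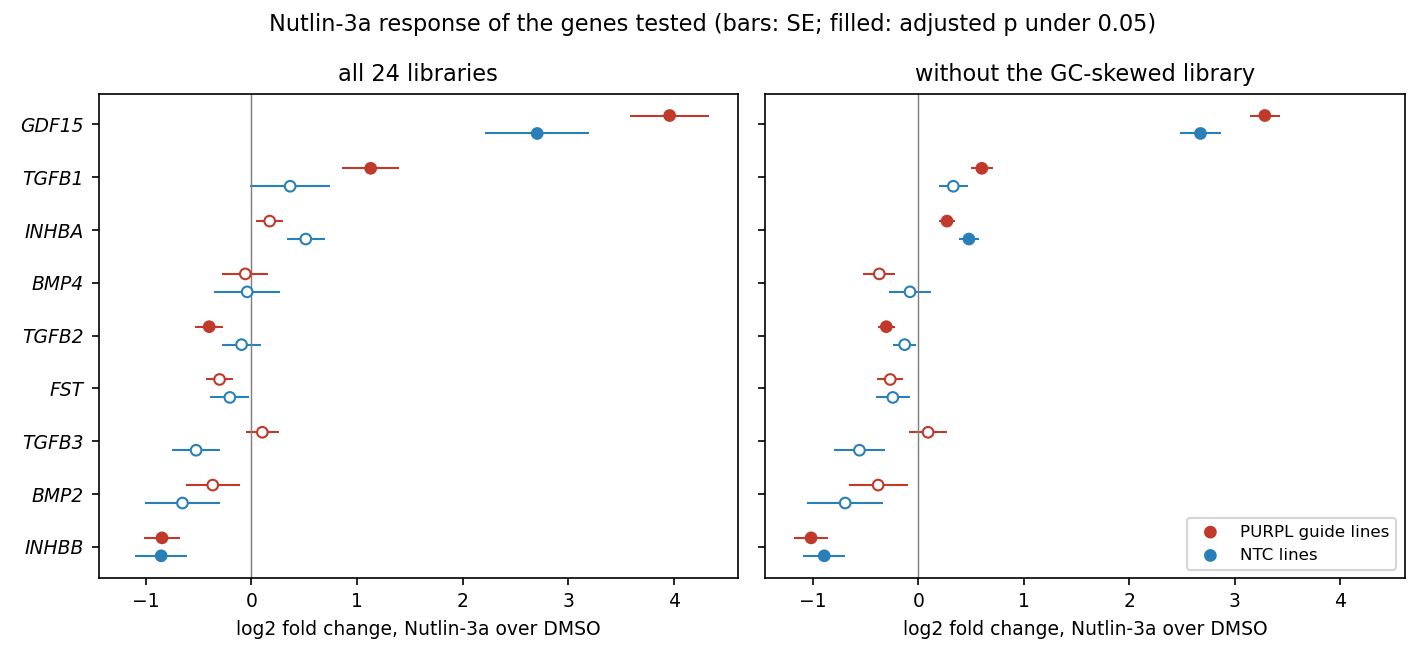
Log2 fold change, Nutlin-3a over DMSO, of GDF15, TGFB1 and the other genes tested in PURPL guide lines and NTC lines, with SE bars, from all 24 libraries (left) and without the divergent library (right); filled points have an edgeR adjusted p under 0.05. GDF15 lies at 3.96 and 2.71 on the left and at 3.28 and 2.67 on the right, and INHBA is filled only on the right.

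The second question was whether lowering PURPL changed these ligands. None of the 8 members tested was called between PURPL guide lines and NTC lines in DMSO, where 0.00601% of all genes was called, namely PURPL itself, lower. With edgeR 2 of the 8 had an unadjusted p under 0.05, and DESeq2 called 0. The 2 were GDF15 and TGFB2. GDF15 averaged 2.17 ± 0.49 CPM in PURPL guide lines (SD, n = 8 libraries) and 3.11 ± 0.79 CPM in NTC lines (SD, n = 4 libraries). The log2 difference, tested on 4 lines against 2, was -0.52 (SE 0.17, edgeR adjusted p = 0.825). The means of all 4 PURPL guide lines lay below those of both NTC lines, and an exact test over the 15 splits of the lines gave p = 0.06667, the smallest it can give. TGFB2 averaged 223 ± 18.0 CPM in PURPL guide lines and 183 ± 32.0 CPM in NTC lines, a log2 difference of 0.29 (SE 0.11, edgeR adjusted p = 0.825), with all 4 PURPL guide lines above both NTC lines and the same exact p. With NTC2 left out the single control line is assumed to vary like the PURPL guide lines, and 6324 genes and 3 members were called: GDF15 at -0.69 (edgeR adjusted p = 0.00297), TGFB2 at 0.50 (edgeR adjusted p = 8.05e-05) and INHBA at 0.31 (edgeR adjusted p = 0.0436). TGFB1 then stood at -0.45 (edgeR adjusted p = 0.00223), against -0.17 with both NTC lines. With NTC1 left out instead, under the same assumption, 8 genes and 0 members were called. GDF15 then stood at -0.33 (edgeR adjusted p = 0.619), TGFB2 at 0.10 (edgeR adjusted p = 0.667), INHBA at -0.12 and TGFB1 at 0.17. In NTC2 harvest 3 GDF15 had 1.93 CPM, inside the range of the PURPL guide lines. Harvest 3 of NTC1 had a GC slope of 0.29, the highest of the DMSO libraries. The transcripts of GDF15 and TGFB1 have 62.9% and 63.5% GC, those of TGFB2 and INHBA 38.9% and 39.1%. Over 9 alternative settings of the processing with all lines kept, GDF15 ran from -0.53 to -0.32 and TGFB2 from 0.24 to 0.30. Whether the skew of this library caused the differences was not tested. For the other 6 members tested the log2 differences in DMSO with all lines ran from -0.25 for BMP2 to 0.30 for BMP4, with SEs of 0.12 to 0.31.

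With Nutlin-3a, 0 of the 8 members was called between PURPL guide lines and NTC lines by edgeR, 0 had an unadjusted p under 0.05 and DESeq2 called 0; over all genes edgeR called 0%. Without the divergent library it called 0.00596%, PURPL alone (edgeR adjusted p = 4.88e-05). GDF15 averaged 44.2 ± 62.7 CPM in PURPL guide lines (SD, n = 8 libraries), or 22.1 ± 4.50 CPM without the divergent library (SD, n = 7 libraries). In NTC lines it averaged 20.2 ± 1.93 CPM (SD, n = 4 libraries). The log2 difference was 1.20 (SE 0.86, edgeR adjusted p = 0.676), and 0.09 (SE 0.15, edgeR adjusted p = 0.893) without the divergent library. With that library left out and GC trends removed it was -0.06. TGFB1 had a log2 difference of 0.98 (SE 0.74, edgeR adjusted p = 0.676) with the divergent library and 0.12 (SE 0.07, edgeR adjusted p = 0.828) without it. For the other 7 members tested the log2 differences ran from -0.24 for INHBA to 0.44 for TGFB3, with SEs of 0.11 to 0.35. Leaving out the divergent library gave -0.23 for INHBB to 0.42 for TGFB3, with INHBA at -0.14, BMP4 at 0.01 against 0.37 with it, and TGFB2 at 0.11 against -0.01 with it.

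The response itself also did not differ between the classes past the threshold. Of the 8 members edgeR called 0, 0 had an unadjusted p under 0.05 and DESeq2 called 0, against 0% of all 17264 genes. GDF15's response was larger in PURPL guide lines than in NTC lines by 1.24 on the log2 scale (SE 0.61, edgeR adjusted p = 0.533), or by 0.59 (SE 0.22, edgeR adjusted p = 0.613) without the divergent library. Over 9 alternative settings of the processing, the divergent library left out among them, this difference ran from 0.25 to 1.26. For TGFB2 the responses differed by -0.35 (SE 0.16, edgeR adjusted p = 0.533) and for INHBA by -0.38 (SE 0.23, edgeR adjusted p = 0.533). Leaving out the divergent library gave -0.20 for TGFB2 (SE 0.13, edgeR adjusted p = 0.614) and -0.24 for INHBA (SE 0.14, edgeR adjusted p = 0.613). The other 5 members tested lay between -0.12 for FST and 0.60 for TGFB3, and between -0.29 for BMP4 and 0.60 for TGFB3 without that library. For TGFB1 the difference of responses ran from -0.13 to 0.78 over 9 alternative settings, and it was negative with GC trends removed. With 2 NTC lines, such p-values do not show that the responses are alike.

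Genes whose levels moved most like GDF15 across the libraries were SESN2 (r = 0.991), ITPKC (0.989), NLRP1 (0.988), BCL2L1 (0.984) and BBC3 (0.984), Pearson's r of log2(CPM + 0.1) over 24 libraries. Of these, 3 were again among the 5 closest without the divergent library: SESN2, ITPKC and NLRP1. All these values share the same libraries and the same split into 2 treatments. Among the superfamily r to GDF15 was 0.81 for TGFB1, -0.77 for TGFB2, -0.63 for INHBB, -0.51 for FST and 0.07 for INHBA. INHBA stood at 0.63 without the divergent library, over 23 libraries.

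Of 24 other ligands of the superfamily 8 passed the filter and were tested. In PURPL guide lines 2 were higher and 3 lower, and in NTC lines 1 was higher and 2 were lower. To set beside this and each list below, 17.7% of all genes were higher and 16.5% lower in PURPL guide lines. The shares were 4.18% and 4.03% in NTC lines. Without the divergent library they were 15.9% and 22.7% in PURPL guide lines, and 8.88% and 15.9% in NTC lines. BMP10, a ligand known from the heart, was higher in both, at 0.73 in PURPL guide lines (edgeR adjusted p = 0.000477) and 1.12 in NTC lines (edgeR adjusted p = 0.000779). BMP8B was lower, at -0.70 and -0.74 in the same order, although its near-identical copy BMP8A makes that value uncertain. BMP6, known for raising hepcidin, was lower, at -0.52 in PURPL guide lines (edgeR adjusted p = 0.0496, and 0.0874 without the divergent library) and -1.01 in NTC lines (edgeR adjusted p = 0.0286). GDF9, an oocyte factor, was higher in PURPL guide lines by 1.70, and GDF11, a close relative of myostatin, lower by a log2 value of -0.25. The GDF9 level was low, at 0.0704 CPM in PURPL guide lines with DMSO and 0.22 CPM with Nutlin-3a, means without the divergent library. In NTC lines it averaged 0.164 CPM with DMSO and 0.233 CPM with Nutlin-3a.

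Of 16 receptor names 12 were tested, with 2 higher and 2 lower in PURPL guide lines and 1 higher and 0 lower in NTC lines. Of all genes 34.2% were called in PURPL guide lines and 8.21% in NTC lines. ACVR1C, a type I receptor known as ALK7, was higher in both classes, by 0.60 in PURPL guide lines (edgeR adjusted p = 0.0153) and 0.92 in NTC lines (edgeR adjusted p = 0.0286). In PURPL guide lines TGFBR3, the co-receptor betaglycan, had 0.32, TGFBR2 -0.21 and BMPR1B, a BMP type I receptor, -0.62. Without the divergent library 3 receptors were higher and 4 lower in PURPL guide lines, and 3 higher and 2 lower in NTC lines. All 8 SMADs were tested. In PURPL guide lines 2 were higher and 4 lower: SMAD7 (0.71), the inhibitory SMAD of TGF-beta signalling, and SMAD3 (0.20) were higher, while SMAD6 (-1.03), the inhibitor of BMP signalling, SMAD9 (-0.76), SMAD1 (-0.52) and SMAD4 (-0.35) were lower. The SMAD6 level was low, at 0.276 CPM in PURPL guide lines with DMSO and 0.121 CPM with Nutlin-3a, means without the divergent library. In NTC lines edgeR called 0 of the 8 SMADs, with 4 at an unadjusted p under 0.05, while DESeq2 called 2 higher and 1 lower. The fit without the divergent library called 2 higher and 5 lower SMADs in PURPL guide lines and 2 of each in NTC lines.

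Extracellular binding proteins, 16 tested of 24 names, had 5 higher and 3 lower in PURPL guide lines, and 0 higher and 1 lower in NTC lines. The share of all genes called was 34.2% in PURPL guide lines and 8.21% in NTC lines. NOG, the BMP antagonist noggin, was lower in both, at -0.70 in PURPL guide lines (edgeR adjusted p = 0.000801) and -0.86 in NTC lines (edgeR adjusted p = 0.00676). In PURPL guide lines the BMP antagonist GREM1 was lower (-0.79), and LTBP2 (1.10), a matrix protein related to those that hold latent TGF-beta, LTBP3 (1.20), which does hold it, and BMP1 (0.99), a protease that cuts procollagen, were higher. LTBP3 was at 0.47 and BMP1 at 0.54 without the divergent library. Of 12 intracellular regulators, 4 were higher and 3 lower in PURPL guide lines, and 1 higher and 2 lower in NTC lines. PMEPA1, a feedback inhibitor of TGF-beta signalling, was higher by 1.05 in PURPL guide lines and 0.77 in NTC lines, and BAMBI, a decoy receptor, lower, at -0.27 and -0.37. TGIF2, a SMAD corepressor, was lower at -0.27 and -0.34, and in PURPL guide lines LEMD3, which binds SMADs at the nuclear envelope, had -0.50 and the corepressor SKI 0.32. Without the divergent library 4 regulators were higher and 3 lower in each class.

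Target genes of the pathway, 16 tested of 22 names, had 6 higher and 0 lower in PURPL guide lines, and 2 higher and 0 lower in NTC lines. Over all genes 17.7% were higher and 16.5% lower in PURPL guide lines, and 4.18% and 4.03% in NTC lines. TSC22D1, which encodes a leucine zipper protein induced by TGF-beta, was higher by 0.27 in PURPL guide lines and 0.30 in NTC lines, and in PURPL guide lines the cytokine LIF by 0.83 (0.55 without the divergent library), the homeobox gene MSX2 by 0.40 and the matricellular CCN2 by 0.31. ID1 and ID3, targets of BMP signalling named after their values were seen, passed the test in the fit without the divergent library and not in that with it. Without it ID1 had -0.57 in PURPL guide lines and -0.83 in NTC lines, and ID3 -0.90 and -1.52, with edgeR adjusted p of 0.0372, 0.0348, 0.000984 and 0.000292. The ID3 level in NTC lines averaged 0.969 CPM with DMSO and 0.344 CPM with Nutlin-3a. In that fit 5 targets were higher and 2 lower in PURPL guide lines, and 3 higher and 2 lower in NTC lines. With all libraries the list median in PURPL guide lines was 0.25, beside 0.05 over all genes, and without the divergent library it was 0.103, beside -0.00146.

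GDF15 is also a known target of the stress factors ATF4 and CHOP. Of 20 such genes 19 were tested, with 8 higher and 0 lower in PURPL guide lines and 3 higher and 0 lower in NTC lines. Over all genes 17.7% were higher and 16.5% lower in PURPL guide lines, and 4.18% and 4.03% in NTC lines. ATF3, DDIT4 and SESN2 were higher in both: ATF3 by 1.64 and 1.48, DDIT4 by 2.63 and 2.01 and SESN2 by 2.28 and 1.64. Some of these, SESN2 and ATF3 among them, are known p53 targets as well. In the divergent library DDIT4 stood at 76.9, SESN2 at 161 and CEBPB at 21.3 CPM. Their means in the other PURPL guide libraries with Nutlin-3a were 27.0, 49.9 and 9.97 CPM. Without the divergent library 8 genes of the list were higher in PURPL guide lines and 5 in NTC lines, and 0 lower in either. The shares higher over all genes were then 15.9% and 8.88%. NUPR1 was higher by 4.28 in PURPL guide lines, or 3.58 without the divergent library, and CEBPB by 0.84. The NUPR1 level in these lines averaged 0.0179 CPM with DMSO, below the 0.0326 CPM that a count of 0 allows. With Nutlin-3a it averaged 0.225 CPM without the divergent library. NUPR1 thus passed the filter through its Nutlin-3a libraries, and the size of its fold change is uncertain. TRIB3, a CHOP target, was at 0.35 in PURPL guide lines (edgeR adjusted p = 0.125) and -0.11 in NTC lines (edgeR adjusted p = 0.906). DDIT3, which encodes CHOP, had 0.74 in PURPL guide lines (edgeR adjusted p = 0.008) and 0.37 in NTC lines (edgeR adjusted p = 0.525). TRIB3 and DDIT3 were named after their values were seen.

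**Figure D4:**
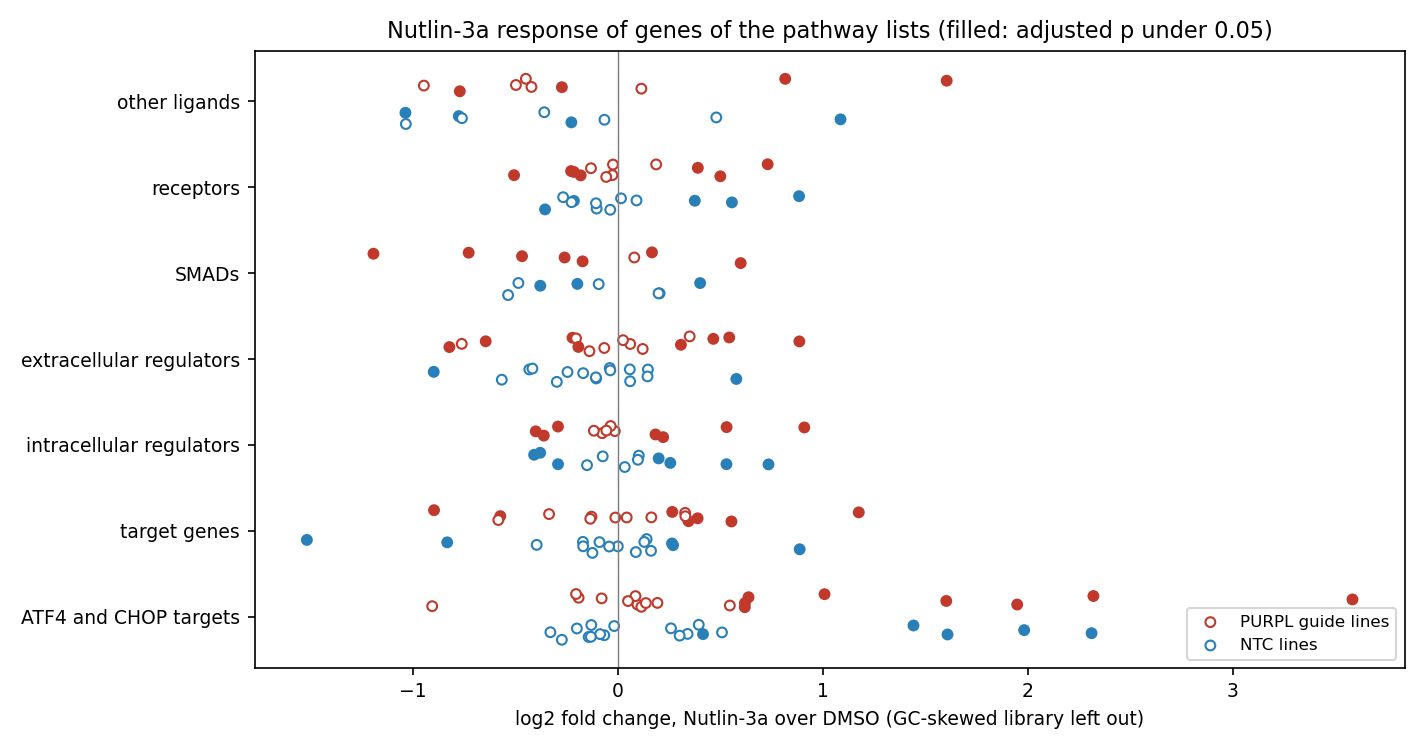
Log2 fold change, Nutlin-3a over DMSO, of the tested genes of 7 pathway lists in PURPL guide lines and NTC lines, from the fit without the divergent library; filled points have an edgeR adjusted p under 0.05. The highest point, at 3.58, is NUPR1 in PURPL guide lines, where its level with DMSO averaged 0.0179 CPM. The lowest, at -1.52, is ID3 in NTC lines.

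Keratins and CD68, from the epithelial and leukocyte marker lists, were high in the divergent library. The summed levels of the fibroblast and mural marker list and of the hepatocyte list were highest there too, at 5101 and 5.36 CPM. In DMSO libraries these 2 sums reached at most 4614 and 3.72 CPM. Of 6 epithelial markers 4 passed the filter, and their summed level was 1749 to 9002 CPM in PURPL guide lines with Nutlin-3a, 1360 to 2412 CPM in PURPL guide lines with DMSO, 1817 to 2099 CPM in NTC lines with Nutlin-3a and 1602 to 2546 CPM in NTC lines with DMSO. KRT8 stood at 5194 CPM and KRT18 at 3704 CPM in the divergent library, against means of 745 and 1361 CPM in the other PURPL guide libraries with Nutlin-3a. EPCAM, a defining surface marker, was at 0.469 CPM there, against 0.453 CPM, and CDH1 reached at most 0.0596 CPM in any library. Of 6 leukocyte markers 2 passed the filter, and their summed level was 19.2 to 78.7 CPM in PURPL guide lines with Nutlin-3a, 16.1 to 22.3 CPM in PURPL guide lines with DMSO, 20.4 to 24.8 CPM in NTC lines with Nutlin-3a and 18.7 to 27.2 CPM in NTC lines with DMSO. CD68, a lysosomal protein, made up 77.8 CPM of the highest sum, while PTPRC, which defines leukocytes, reached at most 0.13 CPM. The part of these markers in the results on the ligands was not tested.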

How the data were processed

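Polyadenylated RNA of 24 cultures was sequenced from TruSeq Stranded mRNA libraries, per the labels' protocols. The authors deposited 1 table of estimated counts per gene, made with cutadapt, STAR and RSEM on hg38, per the submitters' processing notes, which also name DESeq2. RSEM splits reads that fit more than 1 gene, and 5.6% to 7.16% of the values per library had decimals. For tool versions and for the strand setting of the counting, nothing is given in the sources.

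The 45 rows of second pseudoautosomal copies, with 0.0222% of counts, were added to their X rows, and counts were rounded. Of 58825 IDs, 58552 were found in GENCODE 29 without their version. Libraries held 66.4 M to 92.1 M counts; counting error does not cover the spread between cultures.

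Counts were scaled with TMM in edgeR 4.0.16 (R 4.3.3), filtered with filterByExpr (minimum count 10) and tested by glmQLFTest after a robust quasi-likelihood fit, with Benjamini-Hochberg adjustment over all genes tested and calls at 0.05. The response to Nutlin-3a came from 1 model of the 12 group means over 24 libraries, so its p-values measure the spread between harvests. Guide classes were compared on the summed harvests of each line, 4 lines against 2, and the difference of responses on 12 sums with a term for each line, so these p-values measure the spread between lines. Exact permutation tests used log2(CPM + 0.1) of the line means: 64 sign flips over the 6 lines for the response and the 15 splits for the guides. Medians over the genes of a list take log2 fold changes of those tested. The scripts were checked on simulated counts.

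Members, pathway lists, tests and the rule for named genes were chosen with earlier results of these data known, and the lists are no independent evidence. The rule named every member and, from each of 7 lists, up to 5 called genes per response with the smallest p, besides PURPL and p53 targets. Not every gene that the rule names is reported here. The alternatives tried were DESeq2 1.42.0, RLE size factors, a filter at 1 CPM or none, the divergent library left out, GC trends removed (lowess, GC known for 99.7% of genes), a block for the harvest number, harvests in place of sums, and each library or line left out. Adding TGFB2-OT1 to TGFB2, and leaving the divergent library out of the split test, were added after seeing the data.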

Additional observations from a re-analysis of the deposited data

Results flagged for a closer look

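Of 36 groups of libraries, from the 8 members tested and TGFB1, checked for a level far from the others, 6 held one. The cut-off is set for 1 in 20 with independent, normally distributed values. These groups pool harvests of several lines and share libraries between genes, so that rate need not hold and the 6 are only a description. Of the 6, 4 belong to the divergent library, sg2 with Nutlin-3a from harvest 1. There GDF15 stood at 199 CPM, with 30.0 CPM the next highest of the 8 PURPL guide libraries with Nutlin-3a. TGFB1 stood at 121.2 CPM, with 22.6 CPM next. BMP4 stood at 1.897 CPM, with 0.788 CPM next, and INHBA at 12.92 CPM, below the next lowest at 24.5 CPM. The other 2 are DMSO libraries: INHBA at 29.5 CPM in sg6 harvest 1, with 24.9 CPM next among PURPL guide libraries, and GDF15 at 1.926 CPM in NTC2 harvest 3, below the next lowest NTC library at 3.44 CPM.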

How the results depend on the processing

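GDF15 kept its direction and its call in both responses under every alternative run. Of the single-gene values, 743 kept side and direction, 20 passed the threshold only under an alternative, 13 lost it, and 53 changed sign, none of them called under either setting. The cause of each change was not tested. Low counts limit BMP2, TGFB3 and INHBE, and 2 NTC lines limit the guide comparisons.

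In the PURPL guide line response 5 members were called with the divergent library left out and GC trends removed. Leaving out 1 library gave 2 to 4 members and 3805 to 11220 genes. In the NTC line response 1 member and 826 genes were called with no filter, 4137 genes without the divergent library, 3787 with GC trends removed and 5089 with both, and leaving out 1 library gave 1 to 2 members and 796 to 1375 genes. Between guide classes in DMSO 2 genes were called with no filter, GC trends removed (alone or with the divergent library out), or harvests in place of sums (with or without the replicate block), and 11 with DESeq2; leaving out a line gave 0 to 6324 genes and 0 to 3 members. With Nutlin-3a 4 genes were called by DESeq2, 1 without the divergent library, 1 with GC trends removed, 2 with both and 2 with harvests in place of sums, with or without the replicate block; leaving out a line gave 0 to 1 gene. For the difference of responses DESeq2 called 2 genes and both corrections 1; leaving out a line gave 0 to 1.

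Sign changes on the log2 scale were these. BMP4 in PURPL guide lines was at 0.01361 with a filter at 1 CPM, and in NTC lines at 0.01705 with GC trends removed and 0.01216 with both. In DMSO the guide difference was 0.06207 for TGFB1 and 0.005204 for INHBB with GC trends removed, with the divergent library or without. With Nutlin-3a the guide difference of GDF15 was -0.0597 with both and that of BMP4 -0.02995. That of TGFB1 was -0.06655 with GC trends removed and -0.02883 with both. That of TGFB2 was 0.001926 with a filter at 1 CPM, 0.1051 without the divergent library, 0.1278 with GC trends removed and 0.1394 with both. That of BMP2 was 0.01646 with harvests in place of sums and 0.01544 with the replicate block added. The difference of responses was -0.1304 and -0.08992 for TGFB1 and 0.0008623 and 0.01903 for FST with GC trends removed and with both, and 0.01231 for BMP4 with no filter. For INHBB it was 0.01267 with no filter, 0.00173 with a filter at 1 CPM, 0.007986 with harvests in place of sums and 0.009112 with the replicate block. Over lines, leaving out the divergent library gave 0.1027 for TGFB2 and -0.008103 for BMP4 in the guide difference with Nutlin-3a and -0.01723 for the response of INHBE, and a pseudocount of 1 gave 0.0006892 for the guide difference of INHBE.

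Leaving out 1 library or line, these ranges crossed 0. BMP4 ran from -0.37 to 0.0832 and INHBA from -0.01143 to 0.27 in the PURPL guide line response, and BMP4 from -0.23 to 0.0517 in the NTC line response. In DMSO the guide difference ran from -0.45 to 0.17 for TGFB1, -0.12 to 0.31 for INHBA, -0.29 to 0.10 for INHBB and -0.12 to 0.042 for FST. With Nutlin-3a it ran from -0.0414 to 0.0563 for TGFB2, -0.33 to 0.11 for INHBB and -0.51 to 0.57 for BMP2. The difference of responses ran from -0.18 to 0.11 for INHBB, -0.13 to 0.65 for BMP2 and -0.15 to 0.0596 for BMP4.

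Harvest numbers were not taken to pair the samples in the main tests, and the counts of pairs above only describe directions. Deviations of harvests with the same number correlated at 0.101 in NTC1, -0.0177 in NTC2, 0.231 in sg2, 0.0447 in sg4, 0.427 in sg5 and 0.285 in sg6. A replicate block for the number gave 5420 genes and 4 members in PURPL guide lines and 1419 genes and 2 members in NTC lines; it added FST in PURPL guide lines, at -0.31 with an edgeR adjusted p of 0.00537, and changed no other member's call.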
